A study of Arabidopsis thaliana with 6 samples.

Results

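The transcripts described here are those of the 2 genomes that a plant cell keeps outside its nucleus, the plastid genome (gene identifiers that start with ATCG) and the mitochondrial genome (ATMG). The members are the 135 identifiers, of 37336 listed, that had at least 10 expected counts summed over the 6 libraries. They comprised 76 of the 133 plastid and 59 of the 152 mitochondrial identifiers listed. The level of a member was its CPM, the expected count scaled so that all libraries have the same total, and the 2 genomes are described separately.

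The study asked how BRAVO, a MYB transcription factor (MYB56, AT5G17800), acts in the quiescent centre (QC), the small group of rarely dividing cells that organises the stem cells of the root tip. The libraries analysed came from 3 bravo-2 samples and 3 WT samples of QC cells, isolated by fluorescence-activated cell sorting from primary roots of seedlings of *Arabidopsis thaliana* aged 5 days. All plants expressed GFP under the WOX5 promoter, which is active mainly in the QC with some expression in vascular initials and which marked the cells for the sort. The bravo-2 plants carried in addition a knockout allele of BRAVO, the only allele among these libraries, and the study's wox5-1 samples were not analysed here. The labels do not say that the 3 samples of a genotype came from separate plantings, so the p-values below measure the spread between these libraries only. RNA was amplified with a kit for very small inputs, whose first step copies RNA from the poly(A) tail.

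Plastids and mitochondria descend from bacteria and still transcribe and translate a small set of their own genes. The plastid genome encodes parts of the photosynthetic complexes, a bacterial-type RNA polymerase, and the RNAs and part of the proteins of the plastid ribosome, and the mitochondrial genome encodes parts of the respiratory chain and of its own ribosome. Root tip plastids are colourless proplastids and amyloplasts rather than chloroplasts, and poly(A) tails on organelle RNAs mostly mark them for decay, so a library primed from such tails may sample them incompletely.

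The 6 libraries held between 10990221 and 14425263 expected counts. BRAVO itself had 17.4, 10.7 and 9.58 CPM in bravo-2 replicates 1 to 3, against 11.3, 40.6 and 61.3 CPM in WT replicates 1 to 3, so the genotypes overlapped through WT replicate 1 (log2 fold change −1.63 ± 0.58 SE, edgeR adjusted p = 1.00). The 6 QC marker genes summed to 3923, 1022 and 389.9 CPM in bravo-2, against 504, 1833 and 1726 CPM in WT. The 5 root hair markers summed to 11.2, 1253 and 2702 CPM in bravo-2, against 3665, 2194.5 and 3225 CPM in WT, and the 3 root cap markers to 73.6, 44.0 and 51.0 CPM against 116, 94.7 and 73.8 CPM. Bravo-2 replicate 1 stood apart, with the most QC marker RNA and the least root hair marker RNA. Log2 fold changes are therefore also given without it for members whose fold change its absence moved by over 1.5-fold or turned in sign. Smaller moves are given for some members only.

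No member of either genome differed between bravo-2 and WT past the threshold. Of the 135 members, 31 plastid and 9 mitochondrial identifiers passed the filter on low values (a genotype mean of 4 CPM or more in bravo-2 or WT), and edgeR's quasi-likelihood test called 0 of 31 and 0 of 9 at an adjusted p under 0.05, beside 0% of the 15739 genes tested. At an unadjusted p under 0.05, the count was again 0 of 31 and 0 of 9, beside 0.794% of all genes tested (0.413% higher and 0.381% lower in bravo-2). DESeq2, which called 13 genes, called no member. Of the 31 plastid identifiers, 8 are the paired identifiers of rpl2, rps7, ycf2 and the 23S rRNA gene, which lie in a repeat and held equal values, so they are not independent of each other. The plastid members tested had log2 fold changes, bravo-2 over WT, between −0.95 and 0.52 with a median of −0.06, and the mitochondrial ones between −0.64 and 1.20 with a median of −0.19, beside a median of 0.04 over all genes tested. They were positive for 13 of 31 plastid and 3 of 9 mitochondrial members, beside 54.3% of all genes tested. The standard errors ran from 0.42 to 0.88 for plastid members and from 0.49 to 0.78 for mitochondrial members. Differences of this size could not be resolved with 3 libraries per genotype. Differences above their standard error were not called either, such as 1.20 ± 0.75 at the mitochondrial ccmFN1, so the lack of calls does not exclude them. Without bravo-2 replicate 1 the plastid median was −0.54, the values ran from −1.52 to 0.33, and 4 of 31 plastid and 3 of 9 mitochondrial members were positive, beside 49.8% of all genes tested. The sign differed from that with all libraries for 9 plastid members and 0 mitochondrial members. The log2 fold change was lower without this library for 25 of the 31 plastid members, beside 51.3% of all genes, and the mitochondrial median was 0.11 without bravo-2 replicate 2 and −0.50 without bravo-2 replicate 3.

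**Figure D1:**
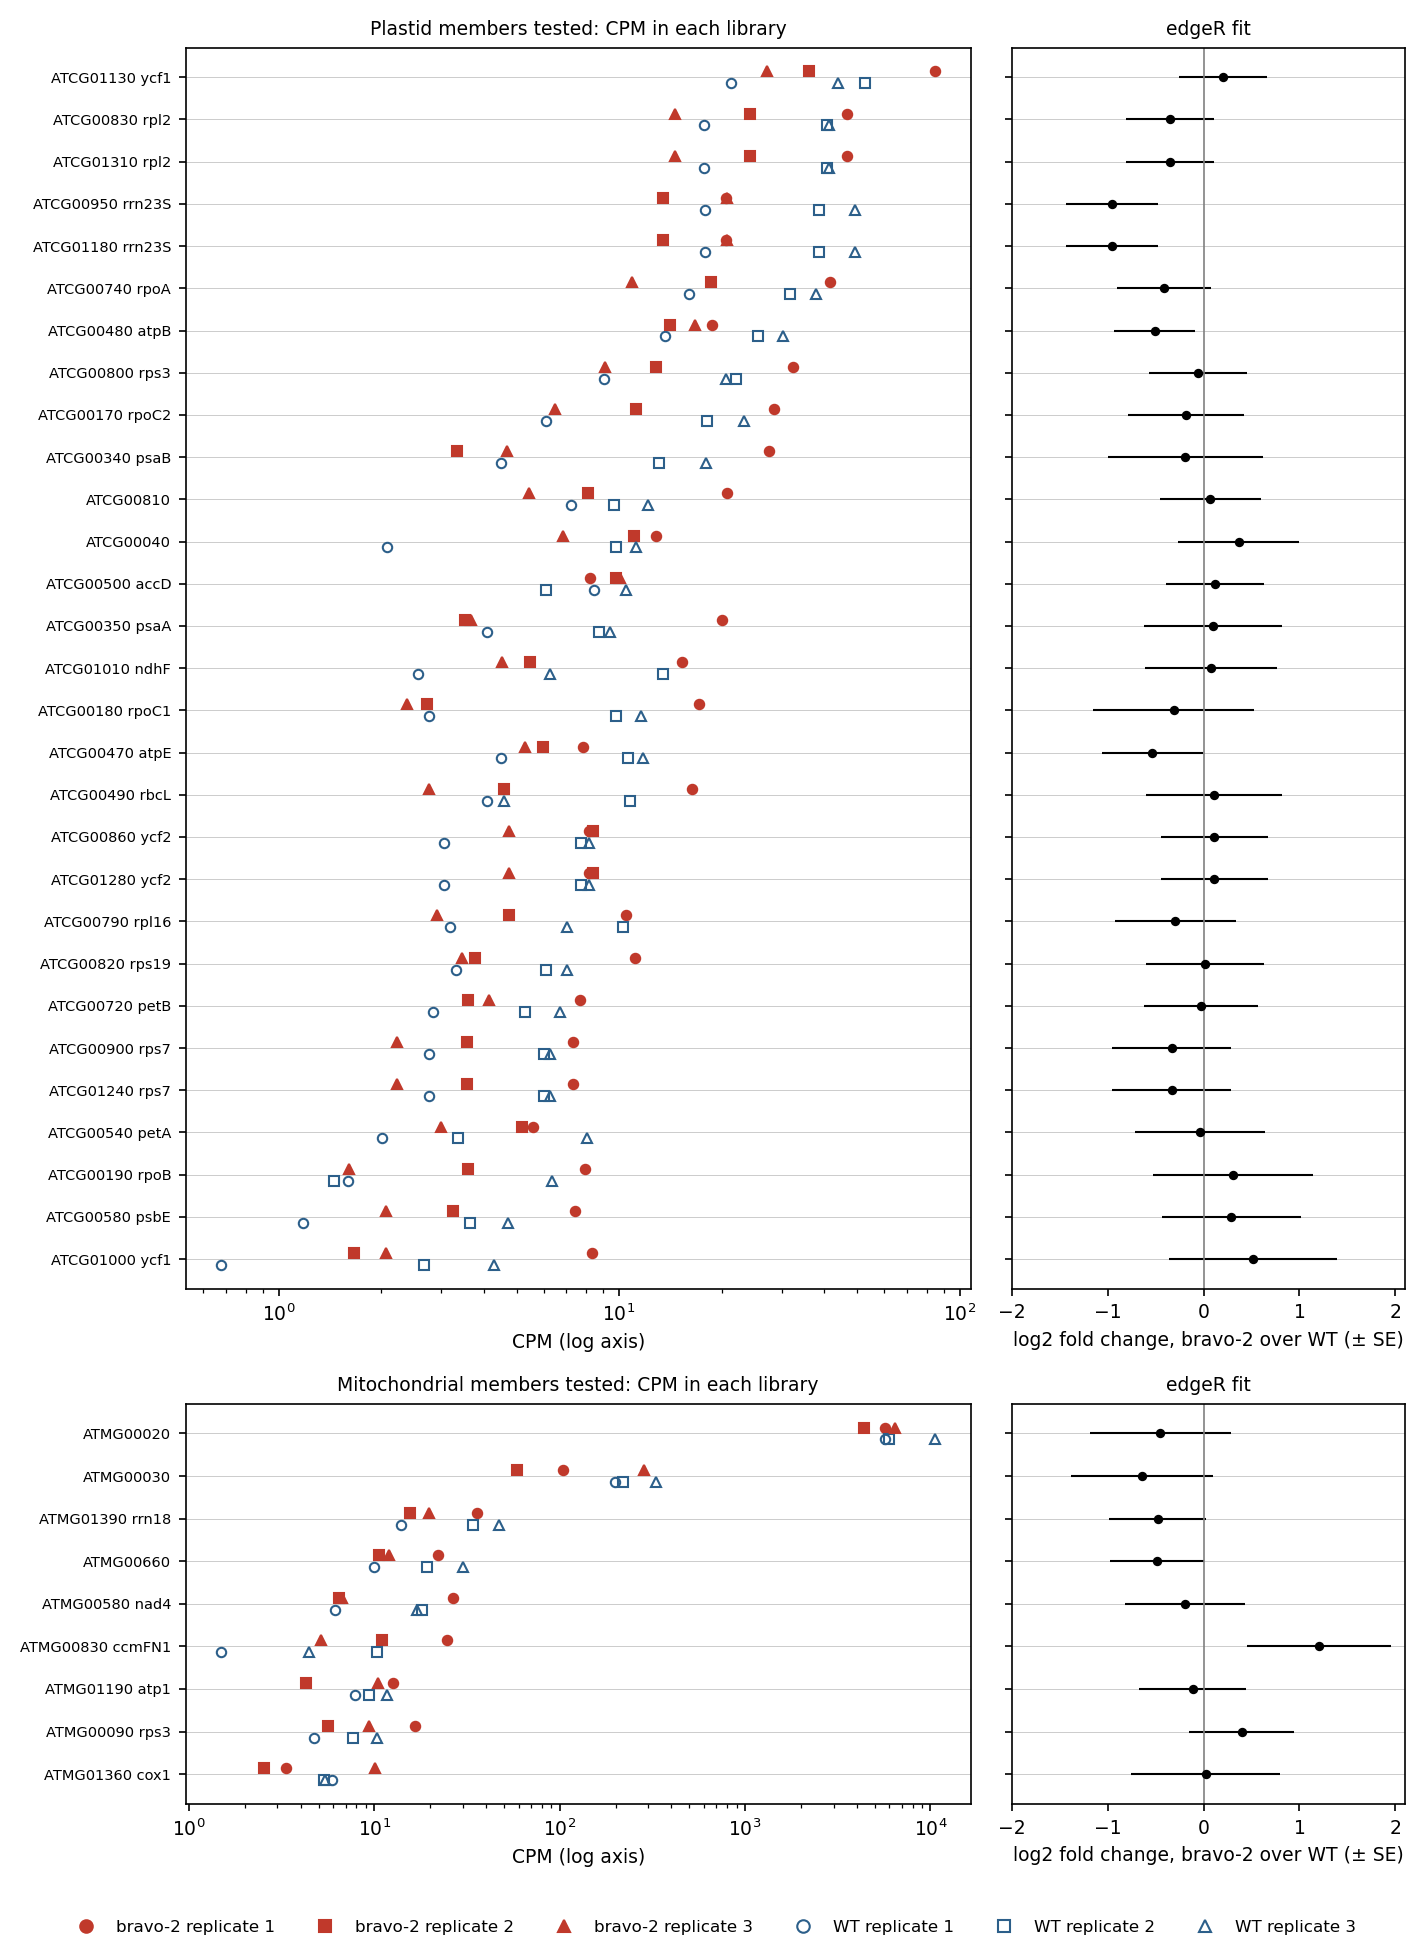
Log2 fold change (bravo-2 over WT, horizontal axis) of 29 of the 31 plastid members and the 9 mitochondrial members tested, each point with its standard error from edgeR, beside the CPM in each library (log axis, bravo-2 filled above WT open). The log2 fold changes run from −0.95 to 0.52 for plastid members and from −0.64 to 1.20 for mitochondrial members, with 0 past the threshold.

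Plastid RNA was a very small part of every library. The share of all expected counts given to plastid identifiers was 0.0685%, 0.0314% and 0.0261% in bravo-2, against 0.0240%, 0.0540% and 0.0596% in WT. The mean share was 0.0420% ± 0.0231 in bravo-2 and 0.0459% ± 0.0192 in WT (SD, n = 3 each), with a log2 ratio of means of −0.13. The highest library, bravo-2 replicate 1, exceeded the lowest, WT replicate 1, by 2.86-fold, and both genotypes held high and low libraries. Without bravo-2 replicate 1 the log2 ratio was −0.67. In such bulk samples, fewer cells of a type and less RNA per cell cannot be told apart.

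On the CPM scale, most plastid members were highest in the library with the highest plastid share. Of the 31 plastid members tested, 22 were highest in bravo-2 replicate 1, 6 in WT replicate 3, 2 in bravo-2 replicate 2 and 1 in WT replicate 2. Bravo-2 replicate 1 was however the highest library for 45.3% of all genes tested. The TMM factors of edgeR correct for differences in the make-up of the libraries. After division by them, 12 of the 31 were highest in bravo-2 replicate 1, beside 31.8% of all genes tested. On that scale 15 were highest in WT replicate 3, beside 8.98% of all genes tested. The summed plastid level on that scale was 542, 301 and 320.4 CPM in bravo-2, against 283, 499.6 and 588 CPM in WT.

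Genes of the plastid genetic system made up more of the plastid RNA than photosynthesis genes. The 17 ribosomal protein members and the 4 RNA polymerase members together held 44.3%, 42.3% and 31.4% of the plastid counts in bravo-2, against 40.3%, 43.3% and 41.0% in WT. The 27 members of the photosystems, the cytochrome b6f complex, ATP synthase, the NADH dehydrogenase-like complex and Rubisco held 22.1%, 17.7% and 21.1% in bravo-2, against 19.2%, 19.6% and 19.9% in WT. Per length, the median over the members of the mean level was 18.8 TPM, the count scaled by gene length and library, for the genetic system and 5.59 TPM for the photosynthesis genes. The groups within each differed, with medians of 19.7 TPM for the ribosomal proteins and 5.70 TPM for the RNA polymerase, and of 22.4 TPM for photosystem II, whose genes are mostly short, and 1.41 TPM for the NADH dehydrogenase-like complex. The ratio of counts between the classes was 2.01, 2.38 and 1.49 in bravo-2, against 2.09, 2.21 and 2.06 in WT, so bravo-2 held both the highest and the lowest ratio.

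**Figure D2:**
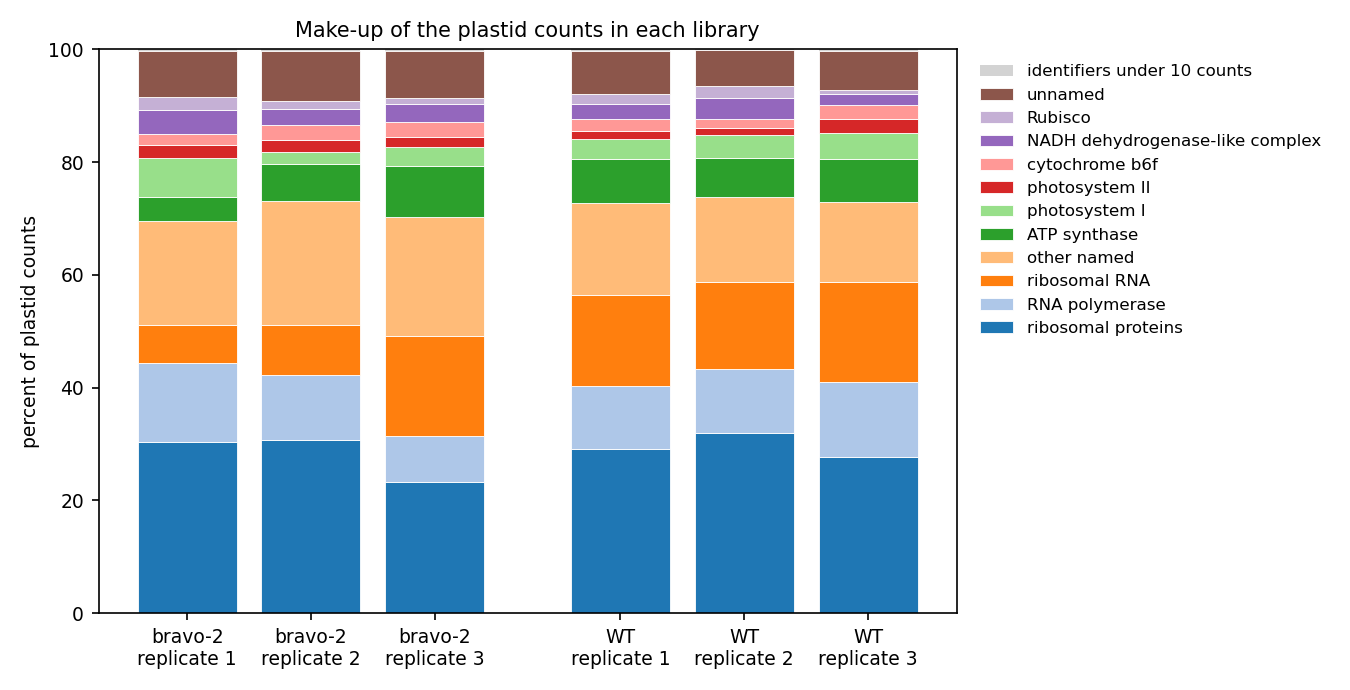
Percent of the plastid expected counts (vertical axis) taken by each gene group in each library, bravo-2 left and WT right. Ribosomal protein genes were the largest named group in every library, between 23.3% and 32.0%, and ribosomal RNA varied most in absolute terms, with 6.75% in bravo-2 replicate 1 and 17.8% in WT replicate 3.

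Among the ribosomal protein genes, rpl2, which encodes a protein of the large subunit and lies in the inverted repeat as ATCG00830 and ATCG01310, was the highest. Each copy had 46.6, 24.3 and 14.6 CPM in bravo-2, against 17.7, 40.9 and 41.5 CPM in WT (log2 fold change −0.35 ± 0.46 SE, and −0.69 without bravo-2 replicate 1). At 62.3 TPM on average, rpl2 was also the highest per length of the genes of this group. The small subunit gene rps3 (ATCG00800) had 32.4, 12.9 and 9.12 CPM in bravo-2, against 9.01, 22.1 and 20.5 CPM in WT (−0.06 ± 0.51). In both genes, bravo-2 replicate 1 was the highest library, bravo-2 replicate 3 and WT replicate 1 were the lowest, and the genotypes overlapped. Of the other ribosomal protein genes tested, rpl16, rps19 and the 2 copies of rps7 averaged between 4.69 and 6.44 CPM over the 6 libraries, and none was separate between the genotypes. The log2 fold change of rps19 was 0.01, and −0.48 without bravo-2 replicate 1. The genes rpl16, rps3 and rps19 lie with rpoA in a run on the minus strand of the plastid genome (RefSeq TAIR10.1, between positions 77901 and 84283).

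All 4 subunits of the plastid-encoded RNA polymerase were tested. The gene for the alpha subunit, rpoA (ATCG00740), had 41.7, 18.6 and 10.9 CPM in bravo-2, against 16.1, 31.7 and 37.8 CPM in WT (−0.41 ± 0.49, and −0.87 without bravo-2 replicate 1). For the beta subunit, rpoB (ATCG00190), the values were 7.95, 3.61 and 1.61 CPM in bravo-2, against 1.59, 1.46 and 6.36 CPM in WT. The gene rpoC1 (ATCG00180) had 17.2, 2.73 and 2.38 CPM in bravo-2, against 2.77, 9.83 and 11.6 CPM in WT, and rpoC2 (ATCG00170) had 28.5, 11.2 and 6.47 CPM, against 6.10, 18.1 and 23.2 CPM. All 4 subunits were highest in bravo-2 replicate 1 and second highest in WT replicate 3, and none was separate between the genotypes. With bravo-2 replicate 1 left out, rpoC1 had −1.52 (−0.32 with it) and rpoB −0.22 (0.30 with it) on the log2 scale. Per length, rpoA averaged 42.8 TPM, above rpoC1 with 5.80 TPM, rpoC2 with 5.61 TPM and rpoB with 1.75 TPM.

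The ribosomal RNAs were not highest in bravo-2 replicate 1. The 23S rRNA gene (rrn23S, ATCG00950 and ATCG01180), the RNA core of the large subunit, had 20.6, 13.4 and 20.7 CPM per copy in bravo-2, against 17.9, 38.6 and 49.4 CPM in WT. Bravo-2 replicate 1 was no higher than replicate 3 here, and WT replicate 1 lay among the bravo-2 libraries. The mean was 18.2 ± 4.17 CPM in bravo-2 and 35.3 ± 16.1 CPM in WT, with the most negative log2 fold change of any plastid member tested, −0.95 ± 0.48 (edgeR unadjusted p = 0.0844, adjusted p = 1.00). Leaving out 1 library at a time gave values between −1.26 and −0.63, all without a call. The 16S rRNA was lower, with 2.53, 0.396 and 2.41 CPM per copy in bravo-2, against 1.49, 2.91 and 3.47 CPM in WT. All 4 rRNA identifiers together took 6.75%, 8.79% and 17.7% of the plastid counts in bravo-2, against 16.1%, 15.4% and 17.8% in WT. Mature rRNA carries no poly(A) tail, and the part of the priming in these values was not tested.

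Of the photosynthesis genes, 9 members were tested. Photosystem I is the complex that passes electrons to ferredoxin, and both of its reaction centre genes varied widely. The gene psaB (ATCG00340) had 27.6, 3.34 and 4.68 CPM in bravo-2, against 4.51, 13.1 and 18.03 CPM in WT (−0.19 ± 0.81), and psaA (ATCG00350) had 20.1, 3.52 and 3.68 CPM, against 4.09, 8.74 and 9.39 CPM. The coefficient of variation of psaB over the 6 libraries was 0.81, beside a median of 0.51 over all genes tested and 0.52 over the plastid members tested. Both genes were highest in bravo-2 replicate 1 and under 5 CPM in the other bravo-2 libraries and in WT replicate 1. Without bravo-2 replicate 1 the log2 fold change of psaB was −1.39 and that of psaA −0.90, against 0.10 with all libraries, and psaB had 0.23 without bravo-2 replicate 2, 0.12 without bravo-2 replicate 3 and 0.27 without WT replicate 3.

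The ATP synthase genes varied less. The gene for the beta subunit of its catalytic head, atpB (ATCG00480), had 18.7, 14.1 and 16.7 CPM in bravo-2, against 13.7, 25.6 and 30.3 CPM in WT (−0.51 ± 0.42), and atpE (ATCG00470), for the epsilon subunit, had 7.86, 5.99 and 5.29 CPM, against 4.51, 10.6 and 11.8 CPM (−0.54 ± 0.53). WT replicates 2 and 3 were above every bravo-2 library in both genes, and WT replicate 1 was below every one. The 2 genes overlap by 4 bases on the same strand, so reads at the junction could be counted for either.

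Rubisco, the enzyme that fixes carbon dioxide, has its large subunit encoded by rbcL (ATCG00490). It had 16.3, 4.58 and 2.76 CPM in bravo-2, against 4.09, 10.7 and 4.58 CPM in WT (0.11 ± 0.71), and was highest in bravo-2 replicate 1, without which the log2 fold change was −0.72. In the cytochrome b6f complex, which links the photosystems, petB averaged 5.14 CPM in bravo-2 and 4.95 CPM in WT, and petA overlapped between the genotypes likewise. Photosystem II, which splits water, had 10 members, of which only psbE (7.41, 3.26 and 2.07 CPM in bravo-2, against 1.18, 3.64 and 4.73 CPM in WT) was tested. The NADH dehydrogenase-like complex had 8 members, of which only ndhF (ATCG01010) was tested, with 15.3, 5.46 and 4.52 CPM in bravo-2, against 2.56, 13.5 and 6.28 CPM in WT. Without bravo-2 replicate 1 the log2 fold change of psbE was −0.15 (0.29 with it) and that of ndhF −0.42 (0.08 with it). Photosystem II genes took between 1.35% and 2.46% of the plastid counts, and genes of the NADH dehydrogenase-like complex between 1.86% and 4.20%. The short genes of photosystem II give high values per length from few reads, such as psbJ with 53.6 TPM from 46 counts over 123 bases.

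The most abundant plastid member was ycf1 (ATCG01130, TAIR10.1 plastid positions 123884 to 129244), whose product is a component of the protein import machinery of the inner plastid envelope. It had 84.7, 36.1 and 27.1 CPM in bravo-2, against 21.4, 52.9 and 43.8 CPM in WT, with a log2 fold change of 0.20 ± 0.46. That value was −0.20 without bravo-2 replicate 1 and −0.01 without WT replicate 1. Over its 5361 bases it averaged 12.3 TPM, below rpl2 and rpoA. As a share of the plastid counts, ycf1 took 12.4%, 11.5% and 10.4% in bravo-2, against 8.90%, 9.80% and 7.35% in WT, so all bravo-2 libraries were above all WT libraries. It was the only 1 of the 31 members tested whose share was separate in this direction (3.23%), and none was separate in the other. On the CPM scale, 0 of the 31 members were separate in either direction. On that scale 1.68% of all genes tested had all bravo-2 libraries above all WT libraries and 2.47% had all below. The count of 1 member is on another scale and was not tested against these shares.

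A shortened ycf1 copy (ATCG01000) at the edge of the inverted repeat had 8.31, 1.67 and 2.07 CPM in bravo-2, against 0.679, 2.67 and 4.28 CPM in WT (0.52 ± 0.88). The log2 fold change was −0.27 without bravo-2 replicate 1 and 1.16 without WT replicate 3. It was the most variable plastid member tested, with a coefficient of variation of 0.83. Both ycf1 identifiers had fractional counts in all 6 libraries, so reads were split between them, and the short copy overlaps ndhF by 39 bases on the opposite strand. Whether the counting used strand is not given in the sources used here, so reads over those bases cannot be told apart.

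The least variable plastid members tested were accD and ycf2. The gene accD (ATCG00500), for a subunit of the acetyl-CoA carboxylase that starts fatty acid synthesis, had 8.22, 9.77 and 10.04 CPM in bravo-2, against 8.46, 6.10 and 10.5 CPM in WT, a coefficient of variation of 0.18. It did not follow the order of the other plastid genes, since bravo-2 replicate 1 was its lowest bravo-2 library. The large open reading frame ycf2 (ATCG00860 and ATCG01280) had 8.17, 8.36 and 4.75 CPM per copy in bravo-2, against 3.05, 7.73 and 8.17 CPM in WT (0.11 ± 0.56, coefficient of variation 0.34). The log2 fold change of accD was 0.12 ± 0.52, and −0.11 without WT replicate 2 and −0.12 without bravo-2 replicate 3. That of ycf2 was −0.14 without WT replicate 1 and −0.03 without bravo-2 replicate 2.

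The group of other named plastid genes, which holds both ycf1 identifiers, ycf2, accD, clpP, cemA and ccsA, took 18.4%, 22.0% and 21.1% of the plastid counts in bravo-2, against 16.4%, 15.2% and 14.2% in WT. The mean was 20.5% ± 1.84 in bravo-2 and 15.2% ± 1.11 in WT, without overlap. Its largest member, ycf1 (ATCG01130), alone took 12.4%, 11.5% and 10.4% in bravo-2, against 8.90%, 9.80% and 7.35% in WT. Without ATCG01130, the rest of the group was lower in bravo-2 replicate 1 than in WT replicate 1. It was higher in the other bravo-2 libraries than in any WT library, so the genotypes overlapped. The separation of the group therefore depends on that of ycf1 given above and is not a further result. The members without a name took 8.15%, 8.93% and 8.37% in bravo-2, against 7.60%, 6.40% and 6.96% in WT, also without overlap. They share only the lack of a name. By length, ATCG00810 could be petD or rpl22, and ATCG00520 could be atpF or ycf4. Neither group separation was tested, and no share over all genes exists on this scale. The highest unnamed member was ATCG00810, with 20.7, 8.10 and 5.44 CPM in bravo-2, against 7.21, 9.64 and 12.1 CPM in WT, a log2 fold change of 0.07 that was −0.44 without bravo-2 replicate 1. The other named and the unnamed genes were 2 of the 11 groups into which the plastid counts were divided, and shares of a whole cannot move independently of each other.

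Of the 76 plastid members, 45 did not pass the filter, and 28 averaged under 1 CPM. Over all 76, 45 were highest in bravo-2 replicate 1 and 40 had a higher mean CPM in bravo-2 than in WT. A count was present in every library for 64. The 39 plastid identifiers under 100 bases, the size range of transfer RNAs, held 16.33 counts in all, and 34 of them had 0. Just inside the threshold of 10 counts lay ATCG00270 with 14 counts, at 0, 0.792 and 0 CPM in bravo-2, against 0, 0.182 and 0.222 CPM in WT, and ATCG00510 with 15. Just outside lay ATCG00010 with 9 and ATCG00020 with 8.

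In the inverted repeat, a stretch of the plastid genome present as 2 identical copies, 8 gene pairs had the same value in every library under both of their identifiers. They were rpl2, rpl23, rps7, ycf2, the 16S and 23S rRNA genes and the unnamed pairs ATCG00905 with ATCG01230 and ATCG00890 with ATCG01250. Their reads fit both copies, so a value per identifier is the number the counting model gave to that copy and not a measurement of it. The uncertainty of that division was recorded with the counts. For the 23S rRNA gene a copy with up to 669 counts in a library had a posterior standard deviation of up to 316 counts. With the copies of a gene summed, 29 plastid rows were tested, with 0 called and a median log2 fold change of −0.06.

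Mitochondrial identifiers held more counts than plastid identifiers in every library, with most of those counts at a single identifier, ATMG00020, described below. Mitochondrial identifiers took 0.597%, 0.450% and 0.683% of all counts in bravo-2, against 0.593%, 0.634% and 1.11% in WT. The mean was 0.577% ± 0.118 in bravo-2 and 0.778% ± 0.286 in WT (SD, n = 3 each), a log2 ratio of −0.43, with overlap between the genotypes. WT replicate 3 was the highest library, and without it the log2 ratio was −0.09. For the plastid, bravo-2 replicate 1 was the highest library. There were 8.70, 14.3 and 26.2 mitochondrial counts per plastid count in bravo-2, against 24.7, 11.7 and 18.6 in WT.

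A single identifier, ATMG00020, held between 94.3% and 96.7% of the mitochondrial counts. It spans 2568 bases and had 5653, 4352 and 6446 CPM in bravo-2, against 5661, 5986 and 10579 CPM in WT, with a log2 fold change of −0.45 ± 0.74 (edgeR adjusted p = 1.00). WT replicate 3 was the only library far from the others. It averaged 3771 TPM, the highest of the members per length. Neither the count files nor the gene table used here pair this identifier with a gene name. Without it, the mitochondrial share was 0.0314%, 0.0150% and 0.0390% in bravo-2, against 0.0269%, 0.0359% and 0.0501% in WT, of the same order as the plastid share.

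The second member, ATMG00030, also without a name, had 104.5, 58.5 and 284 CPM in bravo-2, against 198, 219 and 329.8 CPM in WT (−0.64 ± 0.74). Bravo-2 replicates 1 and 2 were below every WT library, and bravo-2 replicate 3 was above WT replicates 1 and 2. With 1 library left out, the log2 fold change ran from −1.86 (without bravo-2 replicate 3) to −0.23 (without bravo-2 replicate 2), without a call. It was −0.33 without bravo-2 replicate 1. Of the mitochondrial counts other than those of ATMG00020, this identifier took 33.5%, 39.1% and 73.3% in bravo-2, against 74.0%, 61.4% and 66.6% in WT. ATMG00020 was 54.1, 74.4 and 22.7 times as high in bravo-2, against 28.5, 27.3 and 32.1 times in WT, so the ratio was more uniform in WT.

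The 18S rRNA of the small mitochondrial ribosomal subunit (rrn18, ATMG01390) had 35.8, 15.5 and 19.7 CPM in bravo-2, against 13.9, 33.8 and 46.9 CPM in WT (−0.48 ± 0.50). The unnamed ATMG00660 had 21.9, 10.6 and 12.04 CPM in bravo-2, against 9.98, 19.3 and 29.9 CPM in WT (−0.49 ± 0.49). Both rrn18 and ATMG00660 were lowest in WT replicate 1 and highest in WT replicate 3. At 72.4 TPM over 450 bases, ATMG00660 was the third of the 9 members tested per length, after ATMG00020 and ATMG00030 with 1311 TPM, and rrn18 averaged 21.8 TPM. The ribosomal protein gene rps3 (ATMG00090) had 16.5, 5.63 and 9.42 CPM in bravo-2, against 4.71, 7.64 and 10.3 CPM in WT (0.39 ± 0.55).

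As a share of mitochondrial counts rps3 took 0.276%, 0.125% and 0.138% in bravo-2, against 0.0795%, 0.121% and 0.0934% in WT. All bravo-2 libraries were above all WT libraries, which held for 1 of the 9 members tested (11.1%). On the CPM scale it held for 0 of the 9 and for 1.68% of all genes tested. The 11.1% and the 1.68% are on unlike scales and cannot be set against each other. The denominator of that share is almost wholly ATMG00020, and on the CPM scale the genotypes overlapped.

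Respiratory chain genes were represented by 3 members tested. The complex I gene nad4 (ATMG00580), part of the membrane arm that pumps protons, had 26.6, 6.41 and 6.67 CPM in bravo-2, against 6.13, 17.97 and 16.9 CPM in WT (−0.19 ± 0.63). Bravo-2 replicate 1 was its highest library and WT replicate 1 its lowest. The log2 fold change was −0.91 without bravo-2 replicate 1, 0.11 without bravo-2 replicate 2, 0.04 without bravo-2 replicate 3 and 0.01 without WT replicate 3. The complex IV gene cox1 (ATMG01360), for the catalytic subunit of cytochrome c oxidase, had 3.34, 2.55 and 10.1 CPM in bravo-2, against 5.89, 5.37 and 5.40 CPM in WT (0.02 ± 0.78). The 3 WT libraries lay close together, between the low bravo-2 replicates 1 and 2 and the high replicate 3.

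The third was atp1 (ATMG01190), for the alpha subunit of the mitochondrial ATP synthase. It had 12.7, 4.29 and 10.5 CPM in bravo-2, against 7.86, 9.32 and 11.6 CPM in WT (−0.12 ± 0.56, with 0.23 without bravo-2 replicate 2 and 0.03 without WT replicate 3), and its coefficient of variation of 0.32 was the smallest of the 9.

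The largest positive difference was at ccmFN1 (ATMG00830), part of the machinery that attaches haem to c-type cytochromes. It had 24.8, 10.95 and 5.16 CPM in bravo-2, against 1.50, 10.4 and 4.44 CPM in WT. Bravo-2 replicates 1 and 2 were above every WT library, and bravo-2 replicate 3 was above WT replicates 1 and 3 and below WT replicate 2. The log2 fold change was 1.20 ± 0.75 (edgeR unadjusted p = 0.151, adjusted p = 1.00, exact two-sided permutation p = 0.2, where the smallest possible is 0.1). Values with 1 library left out lay between 0.67 (without bravo-2 replicate 1) and 1.97 (without WT replicate 2). Its coefficient of variation, 0.87, was the largest of the 9, and it had fractional counts in all 6 libraries.

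The other 50 mitochondrial members did not pass the filter, and 40 averaged under 1 CPM. A count was present in every library for 37 of the 59 members. By mean CPM, 41 of the 59 were higher in bravo-2, but 2 of the 9 tested were, and the share over all genes was not counted. CPM is not corrected by the TMM factors. On that scale 29 of the 59 were highest in bravo-2 replicate 1, beside 45.3% of all genes tested. On the CPM scale, 7 of the 50 members not tested had all bravo-2 libraries above all WT libraries, beside 3.19% of genes with at least 10 counts that were not tested, and 1 had all below, beside 4.06%. Among all genes with at least 10 counts the shares were 2.12% above and 2.92% below. Among the members tested the counts were 0 of 31 plastid and 0 of 9 mitochondrial, beside 1.68% above and 2.47% below of all genes tested.

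The 7 members were ATMG00140, ATMG00150, ATMG00270, ATMG00500, ATMG00690, ATMG00820 and ATMG01170, named after their values were seen. ATMG00270 had 0.974, 0.176 and 0.328 CPM in bravo-2 and 0 CPM in every WT library. ATMG00150 had 0.181, 1.06 and 0.537 CPM in bravo-2, against 0, 0 and 0.148 CPM in WT. Such members reached 10 counts through bravo-2, so their separation is no support for a difference. The count of 7 was not tested. ATMG00270, ATMG00500, ATMG00820 and ATMG01170 held fractional counts, from reads divided between genes. Summed with its nuclear copy AT2G07708, ATMG00500 had 20.3, 10.04 and 5.58 CPM in bravo-2, against 5.91, 9.98 and 4.93 CPM in WT, with overlap. The part of this division of reads in the separations was not tested. ATMG00140 had 0.813, 2.29 and 0.767 CPM in bravo-2, against 0.0693, 0.546 and 0.517 CPM in WT, and ATMG00690 had 0.903, 0.792 and 1.23 CPM, against 0.347, 0.455 and 0.591 CPM. In counts, ATMG00140 had 9, 26 and 10 in bravo-2, against 1, 6 and 7 in WT, and a level of 3 counts corresponded to between 0.208 and 0.273 CPM. The 1 in the other direction was the complex I gene nad7 (ATMG00510), with 0.271, 0.150 and 0 CPM in bravo-2, against 0.369, 0.354 and 1.14 CPM in WT.

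The 28 mitochondrial identifiers under 100 bases held 0.83 counts in all. At the threshold of 10 counts, ATMG00600 with 10 and ATMG00170 with 10.17 were just inside, and ATMG00920 with 9.28 and the 5S rRNA gene rrn5S (ATMG01380) with 8 just outside.

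Reads given to mitochondrial genes can also come from the nucleus. In *Arabidopsis* a large piece of the mitochondrial genome was copied into the nuclear genome beside the centromere of chromosome 2. On RefSeq TAIR10.1, 170 nuclear genes matched the mitochondrial genome over at least 90% of their span at an identity of at least 95%, and 168 of them were on chromosome 2. The identifiers AT2G07667 to AT2G07835 held 123 of them (chromosome 2, positions 3239693 to 3507323), and the longest match ran over 50638 bases at 99.9% identity. These 123 genes summed to 299, 137 and 144 CPM in bravo-2, against 98.7, 164 and 202 CPM in WT, highest in bravo-2 replicate 1. The mitochondrial members without ATMG00020, ATMG00030 and rrn18 summed to 169, 72.7 and 82.2 CPM in bravo-2, against 55.3, 103 and 115 CPM in WT.

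**Figure D3:**
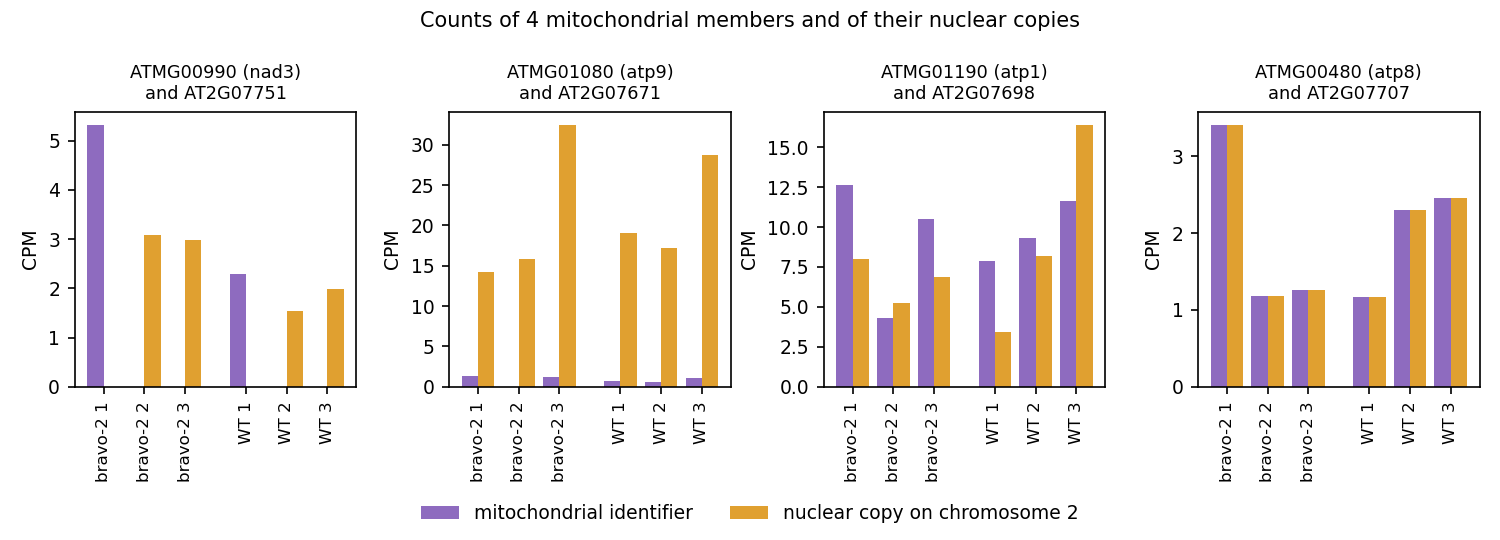
CPM (vertical axes) of nad3, atp9, atp1 and atp8 at the mitochondrial identifier and at the copy on chromosome 2, with a pair of bars per library, bravo-2 left and WT right. The nad3 reads were given wholly to 1 of the copies in each library, atp9 was higher at the nuclear copy in every library, with up to 32.5 CPM, and atp8 was equal at both.

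Of 20 members paired with a nuclear copy by the annotation, 3 had equal values in every library at both, as the counting model gives when no read tells the copies apart. Among them was atp8 (ATMG00480 and AT2G07707), a subunit of the ATP synthase, with 3.41, 1.19 and 1.26 CPM at each in bravo-2, against 1.16, 2.30 and 2.45 CPM in WT. For atp9 (ATMG01080), the subunit of the proton-conducting ring, the mitochondrial gene had 1.30, 0 and 1.23 CPM in bravo-2, against 0.736, 0.587 and 1.10 CPM in WT. Its nuclear copy AT2G07671 had 14.2, 15.8 and 32.5 CPM in bravo-2, against 19.1, 17.2 and 28.7 CPM in WT, many times more in each library.

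For the complex I gene nad3, the assignment was all or none. The mitochondrial nad3 (ATMG00990) had 5.33, 0 and 0 CPM in bravo-2, against 2.29, 0 and 0 CPM in WT, while the nuclear AT2G07751 had 0, 3.08 and 2.99 CPM in bravo-2, against 0, 1.55 and 2.00 CPM in WT. In each library only 1 of the copies was above 0. The sum of both was 5.33, 3.08 and 2.99 CPM in bravo-2, against 2.29, 1.55 and 2.00 CPM in WT, without overlap, an example chosen after its values were seen. It was the only 1 of the 20 summed pairs without overlap, the other 19 overlapped, and the share of genes with at least 10 counts that lay above in this way was 2.12%. For atp1 the nuclear copy AT2G07698 had 7.97, 5.23 and 6.88 CPM in bravo-2, against 3.46, 8.17 and 16.4 CPM in WT, comparable to the mitochondrial gene.

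With each mitochondrial member summed with its nuclear copy, 11 mitochondrial rows were tested, with 0 called and a median log2 fold change of −0.19. Fractional counts, a mark of reads shared between genes, were present in 38 of the 59 mitochondrial and 21 of the 76 plastid members. Whole counts do not show that reads were not shared. Both nad3 and its nuclear copy had fractional counts in 0 libraries, so these numbers can leave out members with shared reads. For members with a nuclear copy, the level is uncertain between the 2 genomes.

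Nuclear genes whose products transcribe the organelle genomes were measured in the same libraries. Phage-type RNA polymerases, single-subunit enzymes of the plastid and the mitochondrion, are encoded by 3 nuclear genes in *Arabidopsis*. They summed to 299, 177 and 35.4 CPM in bravo-2, against 46.2, 139 and 146 CPM in WT, and 0 of 3 passed the test. Of these, AT1G68990 (MGP3 in the gene table) had 184, 93.6 and 21.8 CPM in bravo-2, against 23.1, 83.9 and 71.8 CPM in WT (0.58 ± 0.69). The 12 proteins associated with the plastid-encoded polymerase summed to 282, 138 and 37.6 CPM in bravo-2, against 42.9, 159 and 134 CPM in WT. Of these 0 of 12 passed the test, with a median log2 fold change of 0.25. On the CPM scale 11 were highest in bravo-2 replicate 1, beside 45.3% of all genes tested. Both sums were highest in bravo-2 replicate 1 and low in bravo-2 replicate 3 and WT replicate 1, as was the summed plastid level in CPM. After division by the TMM factors, the plastid sum was highest in WT replicate 3, with 588 CPM against 542 CPM in bravo-2 replicate 1.

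The sigma factors, which guide the plastid-encoded polymerase to promoters, summed to 69.5, 43.0 and 35.8 CPM in bravo-2, against 38.9, 59.1 and 53.5 CPM in WT, and 0 of the 5 tested of 6 passed. SIGE had 9.66, 14.3 and 22.0 CPM in bravo-2, against 22.1, 25.3 and 28.4 CPM in WT, all bravo-2 libraries below all WT libraries (−0.68 ± 0.52), as did 2.47% of all genes tested, and it was the only tested gene of the 3 lists without overlap, while SIG4 had no count in any library.

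**Figure D4:**
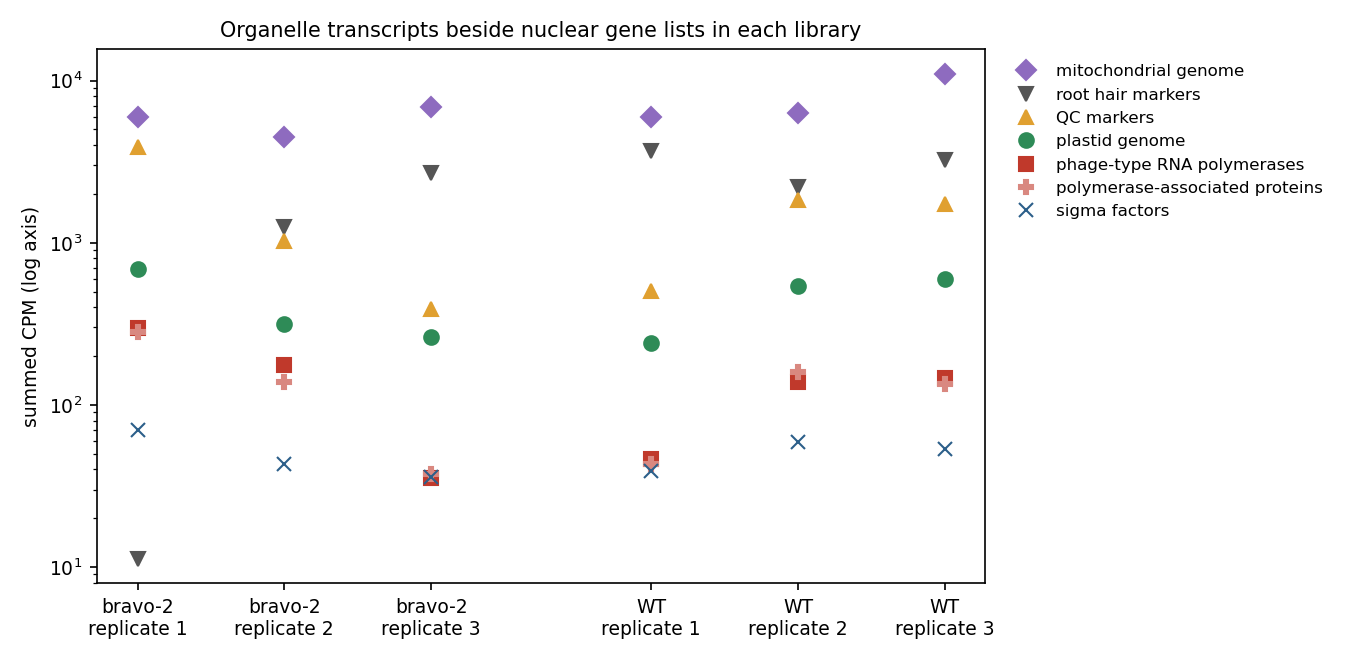
Summed CPM (vertical axis, log scale) of the plastid and mitochondrial identifiers, of 3 lists of nuclear genes that act in organelle transcription, and of QC and root hair markers, with 1 point per list and library, bravo-2 left and WT right. The plastid sum, the phage-type polymerases and the polymerase-associated proteins were highest in bravo-2 replicate 1, where the root hair markers were lowest, at 11.2 CPM.

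The summed plastid level stood beside the cell type markers as follows. Plastid identifiers summed to 685, 314 and 261 CPM in bravo-2, against 239.8, 539.9 and 596 CPM in WT. On the CPM scale the QC markers, like the plastid sum, were highest in bravo-2 replicate 1 and low in bravo-2 replicate 3 and WT replicate 1. Bravo-2 replicate 1 was the highest library for 45.3% of all genes tested on that scale. The part of the cell make-up of the sorted samples in the plastid levels was not tested. Of the green tissue markers, RBCS3B was at 0 in every library and RBCS1A, CAB1, CAB2 and CAB3 were each under 3 CPM, while LHCA1 had 4.15, 3.61 and 1.53 CPM in bravo-2, against 3.33, 2.82 and 4.73 CPM in WT. The remaining one of the 7, GLK2, a transcription factor of chloroplast development, had 58.8, 17.2 and 13.1 CPM in bravo-2, against 13.2, 33.1 and 32.1 CPM in WT, again highest in bravo-2 replicate 1, and made up most of the list's sum of 66.1, 23.4 and 16.0 CPM in bravo-2, against 20.7, 38.0 and 38.7 CPM in WT.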

How the data were processed

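QC cells were sorted by the authors from protoplasts of pWOX5:GFP roots, and RNA was amplified with the SMART-Seq v4 kit. Per the labels and the study's methods, the authors trimmed reads with cutadapt, mapped them to TAIR10 with STAR and quantified genes with RSEM on Araport11 transcripts; tool versions and strand are not given in the sources used here. The deposited files give expected counts, in which RSEM divides reads that fit several genes, and TPM, which the authors' RSEM run scaled by effective length. The authors corrected for a batch effect of the sorting with ARSyN before the NOISeqBIO test; neither was used here, and since the labels do not name the sort of each library, an effect of the sorting was not tested. Identifiers carried no names; 82 of the 135 members were named from annotation notes or by a unique gene length of at least 100 bases in RefSeq TAIR10.1, and the 12 identifiers named both ways agreed.

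CPM was taken over all genes listed. Expected counts were rounded and fitted with edgeR 4.0.16 (R 4.3.3) by the quasi-likelihood test with TMM factors and genotype as the only term, over the 15739 genes that reached a genotype mean of 4 CPM in bravo-2 or WT, with Benjamini-Hochberg adjustment and a threshold of 0.05. Errors of log2 fold changes are standard errors. Library totals lay between 10990221 and 14425263. Nuclear copies were found with blastn 2.17.0 (alignments of at least 200 bases). Alternatives used DESeq2 1.42.0, limma 3.58.1 on log2(CPM + 1), sva 3.50.0, other scalings and filters, and each library left out.

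Genes named were, per genome, the 6 highest by mean CPM, any past the threshold, those tested whose genotypes did not overlap, the 2 just inside and the 2 just outside 10 counts, the 2 most and least variable of those tested, and examples with copies; other members were named by gene group. Members and lists were chosen with earlier results of these data known. The values of 2 plastid members that were tested are not reported here one by one.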

Additional observations from a re-analysis of the deposited data

How the results depend on the processing

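With 3 libraries per genotype, no alternative called a member of either genome. Over all genes, DESeq2 called 13 and the fit to all genes with at least 1 count called 1, against 0 of 15739. With 1 library left out, the counts of genes and of members called were 0 throughout. The median log2 fold change of the plastid members tested then ran from −0.54 (without bravo-2 replicate 1) to 0.11 (without bravo-2 replicate 3), and that of the mitochondrial members from −0.50 (without bravo-2 replicate 3) to 0.11 (without bravo-2 replicate 2). The log2 ratio of the plastid shares ran from −0.67 (without bravo-2 replicate 1) to 0.12, and that of the mitochondrial shares from −0.59 to −0.09 (without WT replicate 3). Other settings gave plastid medians from −0.49 (1 surrogate variable) to 0.15 (scaled to the plastid total), and mitochondrial medians from −0.43 (replicate block) to 0.43 (all genes with at least 1 count, where all 59 members enter). The cause was not tested.

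The labels do not say whether the same replicate number pairs the samples. The correlations below cannot decide it, since deviations from a mean of 3 libraries depend on each other. Deviations from the genotype means correlated at −0.717, −0.0919 and −0.425 for replicates 1, 2 and 3, and between −0.651 and 0.772 across different numbers. With this number as a replicate block, 0 genes were called and the medians were −0.13 (plastid) and −0.43 (mitochondrial). For the 17 named genes fitted, 21 of 255 alternative values had the other sign, 15 of them with 1 library left out, and 0 passed the threshold. Members at a few reads could not be resolved at this depth.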
